A study of Mus musculus with 6 samples.

Results

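G-protein-coupled receptors of peptides, lipids and amines were examined in C2C12 cells, a mouse myoblast line derived from skeletal muscle. The members were the genes whose symbols start with Gprc, Adgr, F2r, Ednr, Cxcr, Ackr, Bdkrb, Agtr or Oxtr, or with Gpr, Lpar, S1pr, Adra, Adrb, Htr or Ccr followed by a digit. Of 22375 rows in the deposited table, 175 carried such a symbol, and 72 of these, whose mean level across both groups reached 0.1 FPKM, are described here. FPKM, fragments per length of transcript and per library total, is a level per length, so levels can be set side by side between genes. The CON group comprised 3 libraries from unstretched cells, and the 4H group comprised 3 libraries from cells stretched cyclically at 15% elongation for 4 h. Both groups were the same cell line without any other treatment named in the labels, and the comparison asks how receptor transcripts differed after the stretch. The sources do not say that the libraries of a group came from separate cultures, so the p-values measure only the spread between these samples, which may be technical.

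The deposited FPKM values summed to between 395790 and 397260 per CON library and between 385146 and 387516 per 4H library, and read totals are unknown. Correlations of log2 values were 0.993 to 0.995 within groups and 0.976 to 0.978 between groups. Of 6 myoblast markers fixed for the check of the label, all 6 were at 1 FPKM or more. They moved with the stretch, Myod1 from 5.13 to 18.2 FPKM and Cdh15, Des and Vim also higher, Myf5 from 15.8 to 9.82 FPKM, and Ncam1 without passing. The leukocyte marker Ptprc and the epithelial marker Epcam were listed at 0 in all libraries, while Cd68 and Csf1r of the leukocyte list, Krt8 of the epithelial list (0.0146 to 0.304 FPKM) and Tubb3 of the neural list (16.2 to 35.8 FPKM) rose. Of the differentiated muscle list, Acta1 and Mymk rose and Myog fell. The part of these changes in the receptor results was not tested.

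These receptors sit in the cell membrane and, once bound by a ligand, activate heterotrimeric G proteins, which control cyclic AMP, calcium and the actin cytoskeleton. Receptors for lysophospholipids and thrombin are known for cell contraction and chemokine receptors for cell migration. Adhesion receptors carry long extracellular domains that bind matrix or neighbouring cells and are cleaved at a site close to the membrane. In muscle, the family is known for guiding the migration of precursor cells. Several proteins with a Gpr name reside in the Golgi or lysosome instead, and 2 members, Agtrap and Gpr15lg, are not receptors.

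Receptor transcripts were higher in stretched cells more often than lower. Of 72 members, 28 rose, 8 fell and 36 did not pass the test, which was limma on log2(FPKM + 0.5) at a Benjamini-Hochberg adjusted p of at most 0.05. Across all 13131 genes tested, 43.4% passed, 22.0% higher and 21.3% lower, against 28 and 8 of 72 members. Differential expression, which also asks for a log2 fold change of 1 or more in either direction, was called for 12 members that were higher and 3 that were lower, while 2.60% and 1.13% of all genes (3.74% in both directions) met these calls. The members' median log2 fold change was 0.15, and that of all genes tested was 0.00. In 33 members every 4H library lay above every CON library and in 12 every 4H library lay below, where 27.8% and 26.6% of all genes did so (54.4% together). Adding 0.5 FPKM before the logarithm makes the fold changes of low genes smaller than the ratios of their FPKM values.

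**Figure D1:**
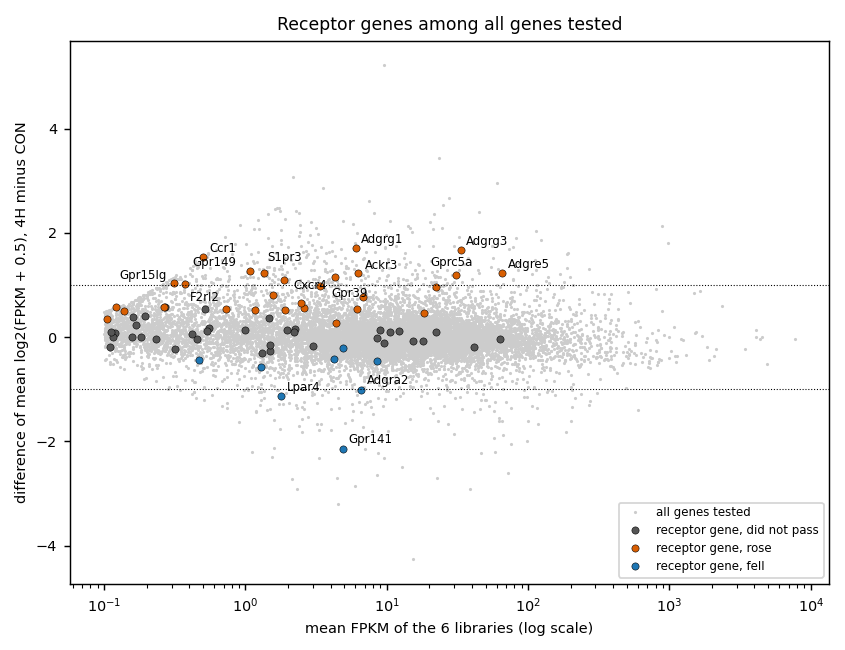
Log2 fold change of 4H against CON (y axis) against mean FPKM over 6 libraries (x axis, log scale) for the 13131 genes tested in grey and the 72 members as larger points, orange where they rose, blue where they fell and dark grey where they did not pass. Gpr141 is the lowest member at -2.14 and Adgrg1 the highest at 1.70.

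Adgre5, Adgrg3, Gprc5a and Adgrg1 were the differentially expressed members with the highest stretched levels, at 91.9, 51.1, 43.1 and 9.47 FPKM. Gpr141, Lpar4 and Adgra2 were the 3 differentially expressed members that were lower. The remaining 8 that were higher were Ackr3, Gpr39, Cxcr4, S1pr3, Gpr149, Ccr1, F2rl2 and Gpr15lg. The sum of the 72 members was 413.1 ± 4.60 FPKM in CON and 562.3 ± 8.78 FPKM in 4H (SD, n = 3 each). With the members under 0.1 FPKM included, the 175 symbols made up 0.104% to 0.106% of a CON library and 0.143% to 0.148% of a 4H library. In bulk samples, fewer cells that express a receptor and less of its RNA per cell cannot be told apart.

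By level, 21 members were at 5 FPKM or more, 24 at 1 to 5 FPKM and 27 at 0.1 to 1 FPKM. In the highest range 9 rose and 2 fell, which is 52.4% passed against 50.1% of all genes in that range. From 1 to 5 FPKM 11 rose and 5 fell, 66.7% passed against 36.1% of all genes. Below 1 FPKM 8 rose and 1 fell, 33.3% passed against 24.5% of all genes. Of the low members, 10 reached the mean of 0.1 FPKM through the 4H libraries while their CON mean was under 0.1, so a difference was built into their selection. They included Ccr1, F2rl2, Gpr15lg, Adgrg5, Lpar3, Gpr153, F2rl1, Gpr135 and Adgrf5, and 6 of the 10 rose. Only Gpr52 was under 0.1 FPKM in 4H and above it in CON. In the 61 members at 0.1 FPKM or more in both groups, 22 rose and 8 fell, of which 9 and 3 were differentially expressed. Of these 61, 49.2% passed against 43.4% of all genes tested, a share taken without that restriction on both groups.

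**Figure D2:**
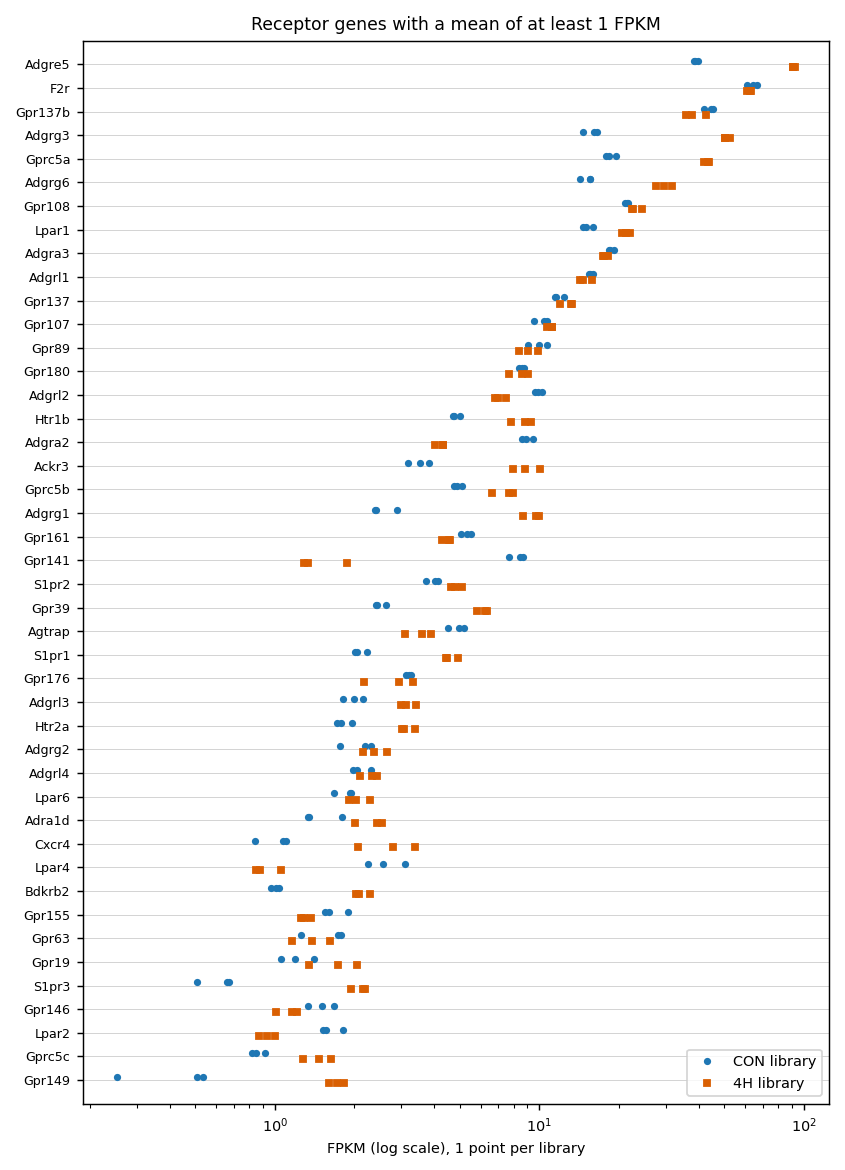
FPKM of each library (log scale) for named members averaging 1 FPKM or more, in order of their mean, with circles for CON and squares for 4H. F2r sits near 63 FPKM in both groups, whereas the Adgre5 points separate at 39.1 and 91.9 FPKM.

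The sequences just upstream of 6 members are shown. Of these, F2rl2, Adgrg1, Gpr39 and S1pr3 rose, F2r did not pass the test and Gpr141 fell furthest. The 6 are not a random draw and hold the marked motif more often than the members as a whole. Ackr3, Adgrg3, Ccr1 and Cxcr4, also differentially expressed and higher, had no match to it and are not printed. Each printed sequence is the 250 bases before the RefSeq start (GRCm38.p6), read 5′ to 3′ on the gene's strand. Capitals mark matches to the AP-1 motif TGANTCA, which reads the same on both strands apart from the middle base. AP-1 is a transcription factor of FOS and JUN proteins that binds this motif. The windows lie at chr13:95696670-95696919 (plus strand) for F2rl2, chr8:94984149-94984398 (plus) for Adgrg1, chr1:125676746-125676995 (plus) for Gpr39, chr13:51408368-51408617 (plus) for S1pr3, chr13:95618467-95618716 (minus) for F2r and chr13:19824258-19824507 (minus) for Gpr141.
F2rl2: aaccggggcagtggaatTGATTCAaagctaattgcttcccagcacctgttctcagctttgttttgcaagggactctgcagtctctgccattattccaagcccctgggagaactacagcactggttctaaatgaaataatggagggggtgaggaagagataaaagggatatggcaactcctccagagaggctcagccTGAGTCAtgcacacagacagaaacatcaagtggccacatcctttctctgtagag
Adgrg1: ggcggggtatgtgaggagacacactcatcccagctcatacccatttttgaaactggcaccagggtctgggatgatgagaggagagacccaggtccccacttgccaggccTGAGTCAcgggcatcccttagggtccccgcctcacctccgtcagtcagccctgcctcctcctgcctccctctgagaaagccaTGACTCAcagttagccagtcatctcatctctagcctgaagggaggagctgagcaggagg
Gpr39: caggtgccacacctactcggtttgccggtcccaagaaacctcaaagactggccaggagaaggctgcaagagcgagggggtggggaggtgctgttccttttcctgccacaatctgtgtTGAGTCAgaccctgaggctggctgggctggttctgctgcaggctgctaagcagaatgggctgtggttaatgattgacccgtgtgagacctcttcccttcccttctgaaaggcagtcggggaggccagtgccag
S1pr3: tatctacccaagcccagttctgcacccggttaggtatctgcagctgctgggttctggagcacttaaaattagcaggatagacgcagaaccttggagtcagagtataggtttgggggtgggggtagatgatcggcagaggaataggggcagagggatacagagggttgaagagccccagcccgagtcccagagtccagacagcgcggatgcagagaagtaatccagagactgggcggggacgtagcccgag
F2r: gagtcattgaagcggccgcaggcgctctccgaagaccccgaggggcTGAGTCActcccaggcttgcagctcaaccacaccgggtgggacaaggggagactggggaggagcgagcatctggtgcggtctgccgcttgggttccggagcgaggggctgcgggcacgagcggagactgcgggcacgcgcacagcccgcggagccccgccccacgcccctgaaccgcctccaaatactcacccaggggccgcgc
Gpr141: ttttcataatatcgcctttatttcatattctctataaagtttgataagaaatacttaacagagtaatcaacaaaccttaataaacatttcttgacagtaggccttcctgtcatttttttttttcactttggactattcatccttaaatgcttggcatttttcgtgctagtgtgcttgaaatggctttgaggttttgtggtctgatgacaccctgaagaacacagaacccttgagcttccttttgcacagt

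In F2rl2 the matches ended 227 and 48 bases before the RefSeq start, and in Adgrg1 135 and 53 bases before it. GENCODE places the start of F2rl2 earlier, at chr13:95696853, so by that annotation the nearer F2rl2 match lies within the gene. Gpr39 had 1 match, ending 127 bases before the start, and F2r had 1, ending 198 bases before the start. No match lay in the windows of S1pr3 and Gpr141. Where RefSeq lists more than 1 start, as for Adgrg1, the window with the most matches is shown. RefSeq gives 75 such windows for 55 of the 72 members, and 8 windows (10.67%) held TGANTCA. Of all 32851 windows, from 27025 genes not filtered by level as the members were, 6.75% held it. Among the members that rose 4 of 27 windows (14.81%) held it, and among the differentially expressed ones that were higher 3 of 9, all of which are printed above. The letters were also present in F2r, Gpr35 and Htr2b, which did not pass the test, and in Lpar2, which fell. The cyclic AMP response element TGACGTCA was found in 1 member window, that of S1pr2 (1.55% of all windows), and the TEAD motif GGAATG in 6 (12.64% of all windows), each searched on both strands (matches of different motifs overlapped in 0 member windows). The SRF CArG box was found in 0 of 75 windows (1.47% of all windows). A match describes letters and is not a binding site shown in these cells.

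Adhesion receptors carried the largest share of receptor FPKM in both groups, and their sum gained the most FPKM, though not the most relative to its CON level. Their 13 members summed to 132.0 ± 3.01 FPKM in CON and 234.3 ± 2.71 FPKM in 4H, 32.0% and 41.7% of the members' total. Of them 6 rose, 2 fell and 5 did not pass, with a median log2 fold change of 0.35. Adgre5 (CD97), which binds the complement regulator CD55 on neighbouring cells, was at 38.5, 39.9 and 38.8 FPKM in CON and at 91.3, 91.3 and 93.0 FPKM in 4H. The groups did not overlap, the log2 fold change was 1.22 ± 0.03 (SE, limma adjusted p = 9.71e-08), and Adgre5 moved from the third highest member in CON to the highest in 4H. Adgre5 lies at chr8:83723251-83741326 on the minus strand (GENCODE M21, GRCm38) and shares exon sequence with Ddx39a on the other strand. Ddx39a was at 226.5 FPKM in CON and 186.9 FPKM in 4H, and with the strand setting of the counting not stated its part in the Adgre5 value was not tested.

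Adgrg1 (GPR56), a receptor for collagen III and transglutaminase, and Adgrg3 (GPR97) lie 3.5 kb apart on chromosome 8, at chr8:94974751-95014217 and chr8:95017692-95045250, both on the plus strand. Adgrg1 was at 2.41, 2.90 and 2.40 FPKM in CON and at 8.70, 9.72 and 10.0 FPKM in 4H, a log2 fold change of 1.70 ± 0.09 (SE, limma adjusted p = 4.19e-06). Adgrg3 was at 16.6, 16.1 and 14.6 FPKM in CON and at 50.2, 50.4 and 52.7 FPKM in 4H, a log2 fold change of 1.67 ± 0.05 (SE, limma adjusted p = 2.92e-07). For both genes all stretched libraries were above all controls, and on the log2(FPKM + 0.5) scale their fold changes were the highest of all members. With a pseudocount of 0.1 the low members Ccr1 (3.26), Gpr15lg (2.48) and F2rl2 (2.12) were above both. The highest value of Adgrg1 in any alternative fit was 1.85. The neighbouring Adgrg5, 31.5 kb from Adgrg1, was at 0.0800, 0.120 and 0.0807 FPKM in CON and at 0.390, 0.151 and 0.350 FPKM in 4H. Its log2 fold change of 0.41 had a limma adjusted p of 0.052, it was 0.55 (adjusted p = 0.0137) without 4H replicate 2, and leaving out any other library gave 0.33 to 0.44 with adjusted p-values of 0.0857 to 0.142.

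Adgrg6 (GPR126), which binds collagen IV and is needed for myelination, also rose. It was at 14.2, 15.5 and 15.5 FPKM in CON and at 31.7, 27.7 and 29.7 FPKM in 4H, with no overlap and a log2 fold change of 0.95 ± 0.06 (SE, limma adjusted p = 9.06e-06), under the fold threshold unless 4H replicate 2 was left out or the libraries were rescaled to TPM (1.00 in each). Adgra2 (GPR124), a partner of Reck in Wnt7 signalling, fell. Its values were 8.57, 9.50 and 8.88 FPKM in CON and 4.31, 4.02 and 4.32 FPKM in 4H, with no overlap. The log2 fold change was -1.01 ± 0.07 (SE, limma adjusted p = 1.59e-05), and it came to -0.97 without CON replicate 2 and -0.98 without 4H replicate 2. Brf2, which shares exon sequence with Adgra2 on the opposite strand, was at 5.81 and 5.72 FPKM.

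The latrophilins, adhesion receptors that bind teneurins and FLRT proteins, went different ways. Adgrl2 fell, from 9.63, 10.3 and 9.86 FPKM in CON to 7.00, 6.79 and 7.48 FPKM in 4H (log2 fold change -0.46 ± 0.06, SE, limma adjusted p = 0.000623). Adgrl3 rose by a log2 fold change of 0.57 (limma adjusted p = 0.00189), from 1.99 ± 0.173 to 3.18 ± 0.208 FPKM (SD, n = 3). Adgrl1 did not pass, at 16.0, 15.5 and 15.5 FPKM in CON and 14.2, 15.8 and 14.6 FPKM in 4H, and the 95% interval of its log2 fold change was -0.19 to 0.05. Adgra3, a relative of Adgra2, was at 18.3, 19.2 and 18.5 FPKM in CON and 17.5, 18.1 and 17.4 FPKM in 4H, just below the controls in each library but with an interval of -0.18 to 0.02 (limma adjusted p = 0.179). Adgrf5 (GPR116), known for control of lung surfactant, was near the detection filter and rose from 0.0313 ± 0.0177 to 0.177 ± 0.0320 FPKM (limma adjusted p = 0.0362). Leaving out a CON library gave adjusted p-values between 0.0696 and 0.0927 for Adgrf5, and without any one 4H library it fell under the filter.

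The 3 reported GPRC5 receptors, orphan receptors of a family first found through retinoic acid induction, rose, and their sum was 24.4 ± 0.687 FPKM in CON and 52.0 ± 1.74 FPKM in 4H. Gprc5a was at 18.4, 17.9 and 19.5 FPKM in CON and at 43.8, 42.1 and 43.6 FPKM in 4H. The groups lay far apart relative to their spread, with a log2 fold change of 1.19 ± 0.04 (SE, limma adjusted p = 5.04e-07). Gprc5b was at 4.88, 5.09 and 4.76 FPKM in CON and at 7.66, 6.64 and 7.94 FPKM in 4H (log2 fold change 0.55 ± 0.08, SE, limma adjusted p = 0.00105). Gprc5c rose from 0.861 ± 0.0506 to 1.46 ± 0.178 FPKM (SD, n = 3, limma adjusted p = 0.0057). Gprc5a lies at chr6:135065651-135084709 on the plus strand.

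**Figure D3:**
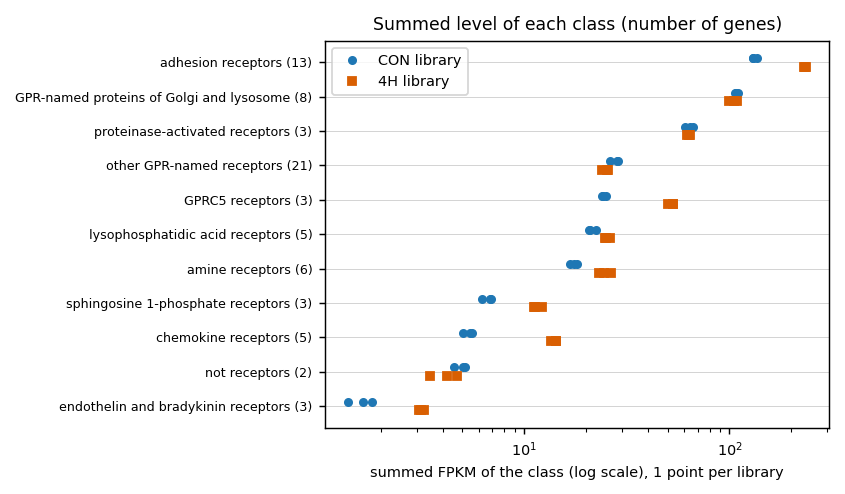
Summed FPKM of each class of members (x axis, log scale), with 1 circle per CON library, 1 square per 4H library and the number of genes in brackets. Adhesion receptors go from 132.0 to 234.3 FPKM and GPRC5 receptors from 24.4 to 52.0 FPKM, while proteinase-activated receptors stay at 64.0 and 63.3 FPKM.

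Lysophosphatidic acid is a serum lipid that drives contraction and growth, and 5 of its receptors were reported. Lpar1, the main receptor here, rose, while Lpar4 and Lpar2 fell. Lpar1 was at 14.6, 16.0 and 15.0 FPKM in CON and at 22.0, 20.5 and 21.2 FPKM in 4H, with no overlap (log2 fold change 0.47 ± 0.05, SE, limma adjusted p = 0.000181). Lpar4, of the branch related to purinergic receptors, was at 2.26, 3.10 and 2.57 FPKM in CON and at 0.879, 1.06 and 0.848 FPKM in 4H (log2 fold change -1.13 ± 0.13, SE, limma adjusted p = 0.000208). All stretched libraries were below all controls, and Lpar4 was the one differentially expressed gene of this class, at chrX:106920625-106933900 on the plus strand. Lpar2 was at 1.81, 1.56 and 1.52 FPKM in CON and at 1.00, 0.867 and 0.931 FPKM in 4H (log2 fold change -0.57 ± 0.10, SE, limma adjusted p = 0.00277).

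Lpar6, also of the purinergic-like branch, did not pass. It was at 1.93, 1.67 and 1.94 FPKM in CON and at 2.02, 2.28 and 1.90 FPKM in 4H, overlapping, with a 95% interval of the log2 fold change of -0.11 to 0.37. It sits within Rb1 and shares exon sequence with that gene, which was at 10.5 FPKM in CON and 9.10 FPKM in 4H. Lpar3 was close to the filter, at 0.0651, 0.142 and 0 FPKM in CON and 0.433, 0.129 and 0.192 FPKM in 4H, also overlapping (limma adjusted p = 0.115). The order of levels was Lpar1, Lpar4, Lpar6, Lpar2 and Lpar3 in CON and Lpar1, Lpar6, Lpar2, Lpar4 and Lpar3 in 4H, with overlap between Lpar6 and Lpar2 in CON and between Lpar2 and Lpar4 in 4H.

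Sphingosine 1-phosphate, the other major lysophospholipid, acts on a sister family, and its 3 reported receptors all rose. S1pr1, which signals through Gi, was at 2.23, 2.02 and 2.04 FPKM in CON and at 4.42, 4.93 and 4.49 FPKM in 4H (log2 fold change 0.98 ± 0.09, SE, limma adjusted p = 5.56e-05), and the log2 fold change reached 1.02 without CON replicate 1 and 1.01 without 4H replicate 1. S1pr3, which also couples to Gq, was at 0.658, 0.674 and 0.506 FPKM in CON and at 1.95, 2.20 and 2.15 FPKM in 4H, a log2 fold change of 1.23 ± 0.11 (SE, limma adjusted p = 5.83e-05). Both receptors had every stretched library above every control, and S1pr3 lies at chr13:51408639-51422797 on the plus strand. S1pr3 shares exon sequence with Gm32834 on the other strand, for which no level was listed. S1pr2, a receptor for the same lipid that couples to several G proteins, was at 4.02, 4.15 and 3.72 FPKM in CON and at 4.80, 5.09 and 4.65 FPKM in 4H. Its log2 fold change was 0.26 ± 0.08 (SE, limma adjusted p = 0.028), and the adjusted p was 0.0593 without CON replicate 1, 0.0908 without CON replicate 3, 0.0605 without 4H replicate 1 and 0.0862 without 4H replicate 2. S1pr2 was the highest of the 3 in both groups, S1pr1 and S1pr2 overlapping in 4H, where S1pr1 reached 4.93 FPKM. S1pr4 and S1pr5 were under the filter.

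F2r, the thrombin receptor PAR1, was the highest member in CON and showed no difference that passed the test. It was at 61.0, 66.7 and 64.0 FPKM in CON and at 63.4, 61.0 and 62.9 FPKM in 4H, and the 95% interval of its log2 fold change ran from -0.12 to 0.06 (limma adjusted p = 0.535). Its neighbours on chromosome 13, F2rl1 and F2rl2, 76.6 kb and 78.4 kb away, both rose from low levels. Both had a CON mean under 0.1 FPKM and reached the filter through 4H, so a difference was built into their selection. F2rl2 (PAR3), which in mouse serves as a cofactor of thrombin signalling, was at 0.0469, 0.0701 and 0.118 FPKM in CON and at 0.690, 0.632 and 0.673 FPKM in 4H. Its log2 fold change was 1.01 ± 0.11 (SE, limma adjusted p = 0.000181), 0.972 without CON replicate 1 and 0.996 without 4H replicate 1, and it lies at chr13:95696853-95702739 on the plus strand, beginning inside the window printed above. F2rl1 (PAR2), the trypsin receptor, was listed at 0 in the 3 CON libraries and was at 0.231, 0.285 and 0.217 FPKM in 4H (limma adjusted p = 0.00378), so no fold is given. Both low genes stayed far under F2r in every library, and the class sum was 64.0 FPKM in CON and 63.3 FPKM in 4H.

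The bradykinin receptors Bdkrb2, the constitutive form, and Bdkrb1, the form usually induced by injury, are neighbours 7.8 kb apart on chromosome 12, and both rose. Bdkrb2 was at 0.967, 1.01 and 1.04 FPKM in CON and at 2.02, 2.08 and 2.28 FPKM in 4H (log2 fold change 0.80 ± 0.09, SE, limma adjusted p = 0.00028). Bdkrb1 was at 0.0843, 0.163 and 0.0913 FPKM in CON and at 0.462, 0.397 and 0.380 FPKM in 4H (log2 fold change 0.58 ± 0.12, SE, limma adjusted p = 0.00457). In both, all stretched libraries lay above the controls. Ednra, the endothelin receptor of smooth muscle, was at 0.332, 0.634 and 0.512 FPKM in CON and 0.664, 0.605 and 0.569 FPKM in 4H, overlapping (limma adjusted p = 0.34). Ednrb and every Agtr and Oxtr symbol had a mean under 0.1 FPKM, apart from Agtrap, which is not a receptor.

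**Figure D4:**
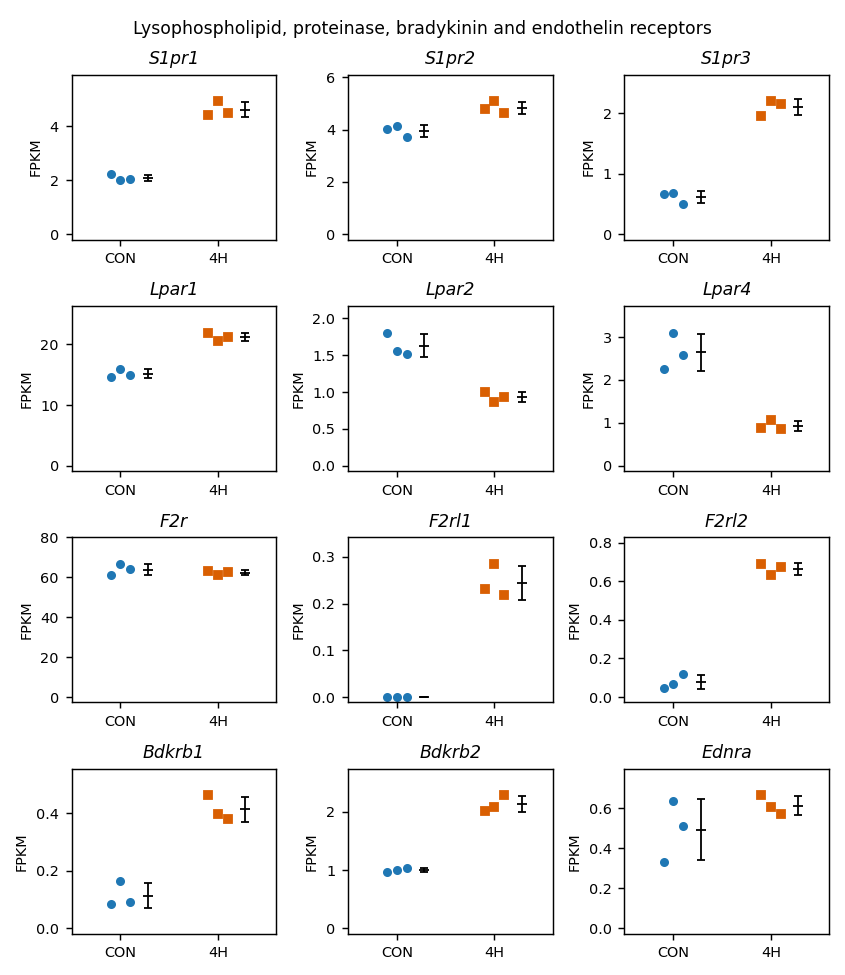
FPKM of each library (y axes from 0, linear) for 12 receptors of lysophospholipids, proteinases, bradykinin and endothelin, with circles for CON, squares for 4H and bars for the mean ± SD. Lpar4 and Lpar2 go down from 2.64 and 1.63 to 0.928 and 0.933 FPKM, while S1pr3 goes up from 0.613 to 2.10 FPKM.

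Of 5 chemokine receptors, 3 rose, all past the fold threshold, and the class sum was 5.34 ± 0.271 FPKM in CON and 14.0 ± 0.462 FPKM in 4H. Of the 3, Ccr1 reached the filter only through 4H. Ackr3, which takes up the chemokine CXCL12 without activating G proteins, was at 3.20, 3.52 and 3.82 FPKM in CON and at 8.82, 10.02 and 7.94 FPKM in 4H (log2 fold change 1.23 ± 0.10, SE, limma adjusted p = 3.91e-05). Cxcr4, the signalling receptor for the same chemokine, was at 0.844, 1.07 and 1.10 FPKM in CON and at 2.79, 2.06 and 3.40 FPKM in 4H. Its log2 fold change was 1.09 ± 0.16 (SE, limma adjusted p = 0.000931) and was 0.95 without 4H replicate 3, the highest library. Both genes had no overlap between groups, and their levels ranked Ackr3 above Cxcr4 in all libraries. They lie on chromosome 1, at chr1:90203980-90216751 on the plus strand and chr1:128588199-128592293 on the minus strand.

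Ccr1, a receptor of inflammatory chemokines best known in myeloid cells, was at 0.0165, 0.0206 and 0 FPKM in CON and at 0.900, 1.31 and 0.777 FPKM in 4H. Its log2 fold change was 1.53 ± 0.15 (SE, limma adjusted p = 9.57e-05), and it lies at chr9:123962124-123968692 on the minus strand. With CON near 0 this value depends on the pseudocount, being 3.26 with a pseudocount of 0.1 and 0.97 with a pseudocount of 1. The CON mean of Ccr1 was under 0.1 FPKM, so a difference was built into its selection. Of 5 leukocyte markers, 3 were under 0.1 FPKM, with Ptprc at 0 in all libraries, while the marker sum was 6.73 to 8.51 FPKM in CON and 16.5 to 18.6 FPKM in 4H. Cd68 went from 7.57 to 16.4 FPKM and Csf1r from 0.00906 to 1.08 FPKM, and the part of these markers in the Ccr1 result was not tested. Cxcr6, 150.4 kb from Ccr1, was at 0.323 ± 0.132 FPKM in CON and 0.715 ± 0.366 FPKM in 4H (SD, n = 3), which did not pass (limma adjusted p = 0.083). Ccr10 was at 0.484 ± 0.111 and 0.589 ± 0.280 FPKM (limma adjusted p = 0.659).

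Among 6 amine receptors, 4 rose and 2 did not pass, none past the fold threshold. Htr1b, a Gi-coupled serotonin receptor, was at 5.01, 4.74 and 4.78 FPKM in CON and at 7.85, 8.85 and 9.26 FPKM in 4H (log2 fold change 0.78 ± 0.08, SE, limma adjusted p = 0.000119). The stretched libraries all lay above the controls. Htr2a, a Gq-coupled serotonin receptor, rose from 1.82 ± 0.127 to 3.16 ± 0.200 FPKM (SD, n = 3, limma adjusted p = 0.000712). Adra1b, a Gq-coupled adrenergic receptor, rose from 0.491 ± 0.0775 to 0.956 ± 0.272 FPKM (SD, n = 3, limma adjusted p = 0.0251). The call for Adra1b was lost when any 1 of 4 libraries (the first and the third of each group) was left out, with adjusted p-values between 0.0683 and 0.0783. Adra1d, of the same subfamily, reached 2.34 ± 0.281 FPKM in 4H (SD, n = 3) and rose by a log2 fold change of 0.51 (limma adjusted p = 0.0135).

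Of the 21 other GPR-named receptors, 3 rose, 3 fell and 15 did not pass, with a median log2 fold change of 0.01. Gpr141, an orphan receptor known mainly from blood cells, fell furthest of the members that fell, and went from the highest of this group in CON to below several others in 4H. It was at 8.44, 7.71 and 8.66 FPKM in CON and at 1.87, 1.34 and 1.29 FPKM in 4H, a log2 fold change of -2.14 ± 0.12 (SE, limma adjusted p = 4.85e-06). Every stretched library was far below the controls, and Gpr141 lies at chr13:19749682-19824257 on the minus strand. Gpr39, which senses extracellular zinc, was at 2.63, 2.42 and 2.42 FPKM in CON and at 6.21, 6.34 and 5.83 FPKM in 4H (log2 fold change 1.15 ± 0.08, SE, limma adjusted p = 1.37e-05). Gpr149, an orphan receptor studied in the oocyte, was at 0.535, 0.253 and 0.508 FPKM in CON and at 1.61, 1.71 and 1.82 FPKM in 4H (log2 fold change 1.26 ± 0.14, SE, limma adjusted p = 0.000228). Neither gene overlapped between groups. Gpr39 lies at chr1:125676995-125873862 on the plus strand and Gpr149 at chr3:62529077-62605140 on the minus strand.

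The other 18 of this group changed less on the log2(FPKM + 0.5) scale, with log2 fold changes from -0.45 for Gpr85 to 0.57 for Gpr35. With a pseudocount of 0.1 the low members Gpr153 and Gpr35 reached 1.49 and 1.25, where Gpr39 was at most 1.27 in any alternative fit. The CON mean of Gpr153 was under 0.1 FPKM, so it reached the filter through 4H. Gpr85 fell from 0.617 ± 0.0152 to 0.322 ± 0.0572 FPKM and Gpr153 rose from 0.0268 ± 0.0359 to 0.249 ± 0.0463 FPKM (SD, n = 3, limma adjusted p = 0.0117 and 0.00982). Gpr161, a ciliary receptor that restrains Hedgehog signalling, was the highest of them in 4H after Gpr39, and fell from 5.28 ± 0.228 to 4.49 ± 0.167 FPKM (limma adjusted p = 0.0462). Leaving out any of the 6 libraries lifted that adjusted p for Gpr161 to between 0.0583 and 0.132. Gpr35, at 0.109 ± 0.0537 and 0.431 ± 0.291 FPKM, did not pass (limma adjusted p = 0.0566), and its log2 fold change of 0.57 was 0.33 (adjusted p = 0.0985) without 4H replicate 1, the highest library, and 0.70 (adjusted p = 0.0444) without 4H replicate 3. At the lower limit of the selection lay Gpr52 and Adgrf5 with means of 0.110 and 0.104 FPKM, and just outside it Gpr75 and Ackr4 with 0.0934 and 0.0827 FPKM. Of the 103 symbols under the limit, 49 were listed at 0 in all libraries.

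None of the 8 GPR-named proteins of the Golgi and lysosome passed the limma test, and their sum was 107.8 ± 1.83 FPKM in CON and 104.8 ± 4.50 FPKM in 4H. At an unadjusted p under 0.05 there were 3, Gpr137b and Gpr155 lower and Gpr108 higher. Their median log2 fold change was -0.01 and 5 of 8 overlapped between groups. Gpr137b, a lysosomal membrane protein, was at 45.5, 44.5 and 42.1 FPKM in CON and 42.8, 35.9 and 37.8 FPKM in 4H, with an adjusted p of 0.0503 by limma, of 0.00547 without 4H replicate 1, and of 0.0584 to 0.146 without any other library. Other genes repeat 29.9% of the 75-base stretches in Gpr137b, so its level is uncertain. Gpr108, a Golgi protein, was at 21.7, 21.5 and 21.1 FPKM in CON and 22.5, 22.5 and 24.4 FPKM in 4H (limma adjusted p = 0.0954). Its relative Gpr107 was at 10.7, 9.56 and 10.4 FPKM in CON and 11.2, 10.7 and 11.2 FPKM in 4H (limma adjusted p = 0.198). These 2 lay slightly above the controls without passing.

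Gpr137, Gpr89 and Gpr180 overlapped between the groups. Gpr137 was at 11.4, 12.4 and 11.6 FPKM in CON and 11.9, 13.3 and 13.1 FPKM in 4H. Gpr89, which regulates Golgi acidity, was at 9.95, 9.07 and 10.7 FPKM in CON and 9.86, 8.40 and 9.03 FPKM in 4H. Gpr180 was at 8.58, 8.76 and 8.35 FPKM in CON and 9.10, 7.67 and 8.59 FPKM in 4H. The limma adjusted p-values of these genes were 0.179, 0.287 and 0.845.

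Both members that are not receptors changed. Agtrap, a protein that promotes the uptake of an angiotensin receptor, was at 4.96, 4.53 and 5.17 FPKM in CON and at 3.89, 3.61 and 3.11 FPKM in 4H. All stretched libraries were below the controls (log2 fold change -0.42 ± 0.10, SE, limma adjusted p = 0.00963). Gpr15lg, the secreted peptide ligand of Gpr15, was at 0.0779, 0 and 0 FPKM in CON and at 0.792, 0.614 and 0.381 FPKM in 4H, with no overlap. Its log2 fold change was 1.04 ± 0.16 (SE, limma adjusted p = 0.00118) and 0.92 without 4H replicate 1, and it lies at chr14:37102140-37114022 on the minus strand. The CON mean of Gpr15lg was under 0.1 FPKM, so it reached the filter through 4H. Gpr15 itself was under the filter. Without these 2 and the Golgi and lysosome class, in which 0 of 8 passed, 27 of 62 members rose and 7 fell. That is 54.8% passed, with a median log2 fold change of 0.31. Of all genes tested, 43.4% passed, 22.0% higher and 21.3% lower, and the median was 0.00. The 62 still hold Ccr1, F2rl2, F2rl1, Gpr153 and Adgrf5, which rose and whose CON mean was under 0.1 FPKM.

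**Figure D5:**
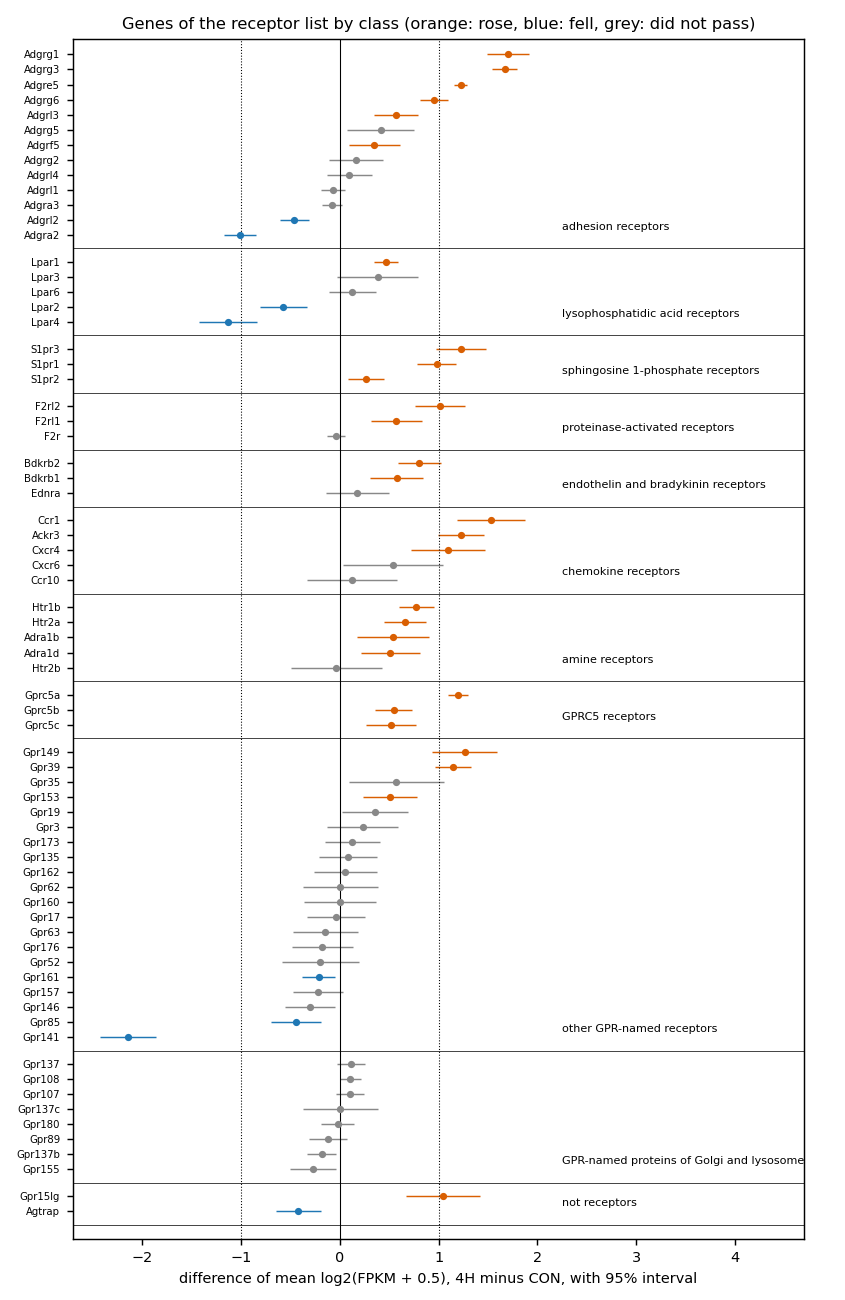
Log2 fold change of 4H against CON on the log2(FPKM + 0.5) scale (x axis) with 95% intervals for the named members, grouped by class, with dotted lines at -1 and 1. The 3 S1P and 3 GPRC5 receptors lie above 0, and the 8 Golgi and lysosome proteins lie between -0.27 and 0.11.

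Of the 95 tested genes in 7 lists of transducers, ligands and further receptors, 29 rose and 4 fell, which is 34.7% passed against 43.4% of all genes, with a median log2 fold change of 0.09. Of these 95, 2 were differentially expressed, where 3.74% of all genes were. Of 12 G protein alpha subunits, which carry the signal from the receptor, 3 rose and 0 fell (0 lower at an unadjusted p under 0.05), and of 14 beta and gamma subunits 2 rose and 3 fell. Of 10 receptor kinases and arrestins, which switch receptors off, 3 rose, and of 9 adenylyl cyclases and phospholipases C beta 3 rose, with 0 lower in either list, also at an unadjusted p under 0.05. Gngt2, a gamma subunit known from cone photoreceptors, was differentially expressed, at 0, 0.191 and 0.378 FPKM in CON and 3.96, 3.17 and 2.74 FPKM in 4H (log2 fold change 2.48 ± 0.21, SE, limma adjusted p = 4.82e-05).

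Of 16 tested ligands and ligand enzymes 3 rose and 1 fell. Cxcl12, shown as the ligand of Ackr3 and Cxcr4, was at 8.12, 8.15 and 8.45 FPKM in CON and 7.08, 7.82 and 7.07 FPKM in 4H, below the controls but not past the test (limma adjusted p = 0.0804). Plpp3, a membrane phosphatase that breaks down lysophosphatidic acid, rose from 5.84 ± 0.156 to 10.04 ± 0.689 FPKM (SD, n = 3, limma adjusted p = 8.29e-05). Enpp2 (autotaxin), which makes that lipid, was at 0.768 ± 0.209 and 0.496 ± 0.145 FPKM and did not pass (limma adjusted p = 0.117). Of 20 tested receptors outside the symbol stems 6 rose and 0 fell by limma (1 lower at an unadjusted p under 0.05), and Lgr6, an R-spondin receptor, was differentially expressed. Lgr6 was at 1.34, 1.47 and 1.39 FPKM in CON and at 8.16, 8.30 and 8.57 FPKM in 4H (log2 fold change 2.22 ± 0.08, SE, limma adjusted p = 4.27e-07), without overlap.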

How the data were processed

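RNA-seq libraries of C2C12 cells (poly(A) RNA, strand-specific) were grouped by the labels into CON and 4H, with 3 libraries each. The authors deposited 1 table of FPKM values with 1 column per library, and 0 columns belonged to no sample. The submitters' processing notes name the build mm10, while the aligner, assembler, annotation and the strand setting of the counting were not given in the sources used here. FPKM divides by length and library total, keeps no read counts, and so gives no depth for single values and no counting interval. No count model was run.

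The test was a two-sided limma comparison (version 3.58.1, R 4.3.3) of log2(FPKM + 0.5), with lmFit and a trended eBayes, run on the 13131 genes whose mean reached 0.1 FPKM, with Benjamini-Hochberg adjustment over all of them. The script was tested on simulated data. A gene passed at an adjusted p of at most 0.05 and was called differentially expressed if its log2 fold change was also 1 or more in either direction. Python 3.11.15 with pandas 2.3.3, numpy 2.4.6 and matplotlib 3.10.9 wrote the tables and drew the plots. Gene positions and shared exons came from GENCODE M21 (GRCm38), where 71 of 72 members were found, and promoter sequences from RefSeq (GRCm38.p6).

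Members named with all libraries were those differentially expressed, those at 5 FPKM or more on average, and all F2r, Lpar, S1pr, Ednr, Bdkrb, Agtr and Oxtr genes above the filter. At most 3 others per class were named by the size of their change, and from the other lists the differentially expressed genes. Gpr161, Cxcl12, Plpp3 and Enpp2 were chosen after their values were seen. A few members and 1 list are counted but not reported by name here. The members, lists and motifs were chosen with earlier results of these data known. The alternatives changed the pseudocount, the filter, the scaling, the limma trend, the replicate block, the fold threshold and the libraries included.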

Additional observations from a re-analysis of the deposited data

How the results depend on the processing

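No member that passed changed direction under any of 16 alternative fits, and 31 of the 36 members that passed did so in every fit in which they were tested. The number of members passing ranged from 28 of the 45 tested with a filter at 1 FPKM to 40 of 72 without the limma trend. It was 32 to 34 when 1 library was left out. Differentially expressed members numbered 7 with a pseudocount of 1 in place of 0.5, 22 with a pseudocount of 0.1, 20 after rescaling to TPM, 21 with a threshold on the ratio of mean FPKM (all 15 shared) and 14 to 15 with 1 library left out. The larger pseudocount, which by construction shrinks low genes, left out Adgra2, Ccr1, Cxcr4, F2rl2, Gpr149, Gpr15lg, Lpar4 and S1pr3. Quantile normalization left out Cxcr4, F2rl2 and Gpr15lg and lost the passing calls of Adgrf5, Adra1b and Gpr153 (adjusted p = 0.261, 0.0847 and 0.0509). Across all genes, 907 were differentially expressed with a pseudocount of 0.1 and 782 after rescaling to TPM, and 345 with a pseudocount of 1, against 491, and 495 to 511 with 1 library left out. With 1 library left out, 4775 to 5094 genes passed in all and 28 to 35 genes of the signalling lists, against 5696 and 33. The replicate numbers were not taken to pair the libraries, since deviations of libraries with the same biosample number in the labels correlated at 0.02, -0.07 and -0.09. The library names number the 4H libraries differently, so that by name CON replicate 3 matches 4H replicate 2 (0.14) and CON replicate 1 matches 4H replicate 1, and a block on those names was not run. With the replicate block on the biosample numbers 36 members passed, 33 of them shared, and the same 15 were differentially expressed, while Adgrf5, Adra1b and Gpr161 no longer passed and Gpr137b, Cxcr6 and Gpr19 did. Read depth is unknown, so values near 0.1 FPKM carry an unstated counting error.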
